A study of Mus musculus with 4 samples.

Results

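The set described here is 40 genes whose transcripts mark dividing cells: 16 genes of S phase (Mcm2, Mcm3, Mcm4, Mcm5, Mcm6, Mcm7, Pcna, Tyms, Rrm1, Rrm2, Gins2, Cdc6, Slbp, Ung, Uhrf1 and Dut) and 24 genes of G2 and mitosis (Mki67, Top2a, Birc5, Cdk1, Ube2c, Cenpf, Cenpe, Cenpa, Ccnb1, Ccnb2, Ccna2, Tpx2, Nusap1, Aurka, Aurkb, Bub1, Kif11, Kif23, Kif20b, Hmgb2, Tacc3, Prc1, Cdc20 and Plk1). They were taken by name, and all 40 were among the 18109 genes common to the 3 libraries. Male Mef2c-mTmG mice, whose fluorescent reporter separates cells by lineage, gave the cells, taken from the ascending aorta. Live single cells were sorted on the reporter and profiled with droplet-based 3′ single-cell RNA sequencing (10x Chromium, v3 chemistry). The libraries were SHF baseline (second heart field lineage, no infusion), SHF AngII (the same lineage after 3 days of angiotensin II infusion) and CNC AngII (the sorted fraction the labels name CNC, without spelling it out, after the same infusion). The labels give neither the age nor the number of mice. A CNC baseline sample is named in the labels and was not analysed here. Each group is 1 library, so no test was made and every interval below covers counting error only.

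A cell copies its DNA in S phase and separates the copies in mitosis. During S phase the MCM helicase, loaded on DNA in G1, unwinds the double helix, the Pcna clamp holds the polymerases, and Tyms, Rrm1, Rrm2 and Dut keep the nucleotide pools fit for synthesis. In G2 and mitosis, cyclin-dependent kinase 1 with cyclins A and B drives chromosome condensation, the spindle and the kinetochores, and the anaphase-promoting complex with Cdc20 and Ube2c then destroys the cyclins. E2F factors are known to act at promoters of replication genes, and the DREAM and MuvB complexes at a CHR element, often near CCAAT boxes, in promoters of mitotic genes. Smooth muscle cells of the adult aorta rarely divide, and division of aortic fibroblasts and macrophages is known in angiotensin II infusion.

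The promoters of the members are shown first, from RefSeq (GRCm38.p6), with S genes and G2/M genes side by side. A window of 300 bases (250 before the annotated start and 50 after it) was found for 35 of the 40 members, all but Mcm4, Gins2, Ccna2, Tpx2 and Aurkb, and for 27025 genes in all. Both strands were searched for the CHR (TTTGAA or TTCGAA), the CCAAT box (CCAAT) and the E2F element (TTTCCCGC, TTTCGCGC, TTTGCCGC or TTTGGCGC). Counts are of genes with a window, and a gene with several windows counted once, by a match in any of them. A CHR was found for 16 of 21 G2/M genes (76.2%), 2 of 14 S genes (14.3%) and 21.7% of all genes with a window. An E2F element was found for 6 of 14 S genes (42.9%), 1 of 21 G2/M genes (4.76%) and 2.60% of all. A CCAAT box was found for 17 of 21 G2/M genes (81.0%), 10 of 14 S genes (71.4%) and 41.1% of all. A match describes letters and not binding. The 160 bases before the start are printed for 3 G2/M genes and 3 S genes, 5′ to 3′ on the gene's strand, with these 3 motifs on either strand in capitals. In Mcm5 and Mcm6, 2 E2F forms on opposite strands overlap and run together.
Top2a chr11:99024190-99024349 (minus strand): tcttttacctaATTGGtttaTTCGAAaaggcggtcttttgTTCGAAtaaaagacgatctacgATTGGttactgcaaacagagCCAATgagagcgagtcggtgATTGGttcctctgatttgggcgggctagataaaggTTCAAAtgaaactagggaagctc
Mki67 chr7:135716380-135716539 (minus strand): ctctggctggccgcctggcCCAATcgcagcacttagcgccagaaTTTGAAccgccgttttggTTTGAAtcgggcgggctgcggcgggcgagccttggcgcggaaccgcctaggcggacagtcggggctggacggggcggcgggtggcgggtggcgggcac
Hmgb2 chr8:57511683-57511842 (plus strand): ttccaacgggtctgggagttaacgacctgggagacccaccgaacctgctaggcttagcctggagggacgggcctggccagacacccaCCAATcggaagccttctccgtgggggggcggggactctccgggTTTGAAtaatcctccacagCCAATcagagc
Mcm5 chr8:75109349-75109508 (plus strand): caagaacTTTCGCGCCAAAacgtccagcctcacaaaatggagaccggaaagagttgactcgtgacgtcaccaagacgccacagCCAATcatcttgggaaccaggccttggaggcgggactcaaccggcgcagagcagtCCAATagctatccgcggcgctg
Mcm6 chr1:128359706-128359865 (minus strand): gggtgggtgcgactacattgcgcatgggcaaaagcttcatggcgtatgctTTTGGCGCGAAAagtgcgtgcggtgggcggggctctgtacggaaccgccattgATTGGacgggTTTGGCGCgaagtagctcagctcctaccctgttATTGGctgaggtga
Cdc6 chr11:98907991-98908150 (plus strand): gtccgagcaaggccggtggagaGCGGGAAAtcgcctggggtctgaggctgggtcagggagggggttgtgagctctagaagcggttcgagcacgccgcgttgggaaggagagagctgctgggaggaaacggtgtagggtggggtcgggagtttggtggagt
In these windows Top2a shows 3 CHR matches, Mki67 2 and Hmgb2 1, close to its start, while the 3 S genes show E2F letters without a CHR.

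The deposited tables held 9412 (SHF baseline), 11166 (SHF AngII) and 11098 (CNC AngII) barcodes with 92474476, 147854476 and 150954701 UMIs (unique molecular identifiers, each 1 captured transcript). After a filter on detected genes (500 or more) and mitochondrial UMIs (10% or less), and after removal of the doublets marked by Scrublet (2.01% to 2.65% per library), 8374, 9299 and 10194 cells were used. The mitochondrial limit alone failed 7.34%, 14.5% and 5.30% of barcodes in that order. Pairs of libraries shared 29 to 34 barcodes. The baseline table lists 18760 genes and each AngII table lists 32285, so differences between AngII and baseline cannot be told apart from differences in how the tables and libraries were made.

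Cells were classed by counts of marker transcripts. Smooth muscle cells had at least 5 UMIs of Myh11, the smooth muscle myosin, and none of Pdgfra, and numbered 2259, 4649 and 6385 in SHF baseline, SHF AngII and CNC AngII, and their median cell held 12441, 13336 and 13450.0 UMIs. Fibroblasts had at least 1 UMI of Pdgfra, a platelet-derived growth factor receptor of fibroblasts, and at most 2 of Myh11, and numbered 3939, 2640 and 842, with medians of 9534, 15485.5 and 12379.5 UMIs. Macrophages had at least 10 UMIs over C1qa, C1qb and Lyz2 and fewer than 5 of Myh11, and numbered 8, 13 and 1764, so only CNC AngII, with a median of 11108.5 UMIs, gave a macrophage class that could be described. In smooth muscle cells 7 smooth muscle markers summed to 57227 to 64211 CPM (UMIs of a gene scaled to a common total of all UMIs of the class). In fibroblasts 7 fibroblast markers summed to 17504 to 39519 CPM. Myh11 and Pdgfra are among these markers, so high sums follow in part from the gates. The fibroblast markers summed to 3227 to 3982 CPM in smooth muscle cells, and the smooth muscle markers to 1303 to 4067 CPM in fibroblasts. Macrophage markers summed to 345 CPM in smooth muscle cells and 248 CPM in fibroblasts of CNC AngII, against 1.40 to 20.3 CPM in the SHF libraries.

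Few smooth muscle cells and many fibroblasts and macrophages of the infused aortas carried many of the 40 transcripts. The share of cells with 3 or more members was 42.4%, 46.2% and 47.7% in smooth muscle cells (SHF baseline, SHF AngII, CNC AngII), 37.4%, 67.1% and 56.4% in fibroblasts and 77.0% in macrophages. That share was already high at baseline, where several members had UMIs in many cells: Dut had one in 47.8% of SHF baseline smooth muscle cells, Slbp in 33.2% and Hmgb2 in 41.3%, against 0.0885% for Mki67. A stricter criterion of 10 or more members was therefore added after the data had been seen.

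By that criterion SHF baseline smooth muscle held no such cell (0 of 2259, 95% interval 0 to 0.163), after 1 such cell had been left out as a doublet. SHF AngII smooth muscle held 52 of 4649 cells (1.12%, 95% interval 0.836 to 1.46). CNC AngII smooth muscle held 243 of 6385 cells (3.81%, 95% interval 3.35 to 4.30). Among fibroblasts, SHF baseline held 11 of 3939 cells (0.279%, 95% interval 0.139 to 0.499). SHF AngII fibroblasts held 543 of 2640 cells (20.6%, 95% interval 19.04 to 22.2). CNC AngII fibroblasts held 161 of 842 cells (19.1%, 95% interval 16.5 to 21.9), an interval that overlaps that of SHF AngII. Among CNC AngII macrophages, 708 of 1764 cells (40.1%, 95% interval 37.8 to 42.5) passed. These intervals are exact Clopper-Pearson intervals.

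Requiring 3 or more G2/M genes other than Hmgb2 gave nearly the same shares: 0.0443%, 1.36% and 3.76% of smooth muscle cells, 0.305%, 21.8% and 19.5% of fibroblasts and 41.7% of macrophages. Depth entered both criteria. After each cell was thinned to 5000 UMIs, with 45 to 717 shallower cells left out per class and library, the share with 10 or more members was 0%, 0.632% and 2.48% in smooth muscle cells, 0.248%, 13.9% and 13.5% in fibroblasts and 30.5% in macrophages, in the same order as before. The share with 3 or more became 8.22%, 9.13% and 11.8% in smooth muscle cells, 13.2%, 32.6% and 30.9% in fibroblasts and 59.2% in macrophages. The SHF AngII smooth muscle cells with 10 or more members had a median of 29451 UMIs and those of CNC AngII 27681, against 21951 and 18697 in the corresponding fibroblasts and 13196.5 in macrophages.

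**Figure D1:**
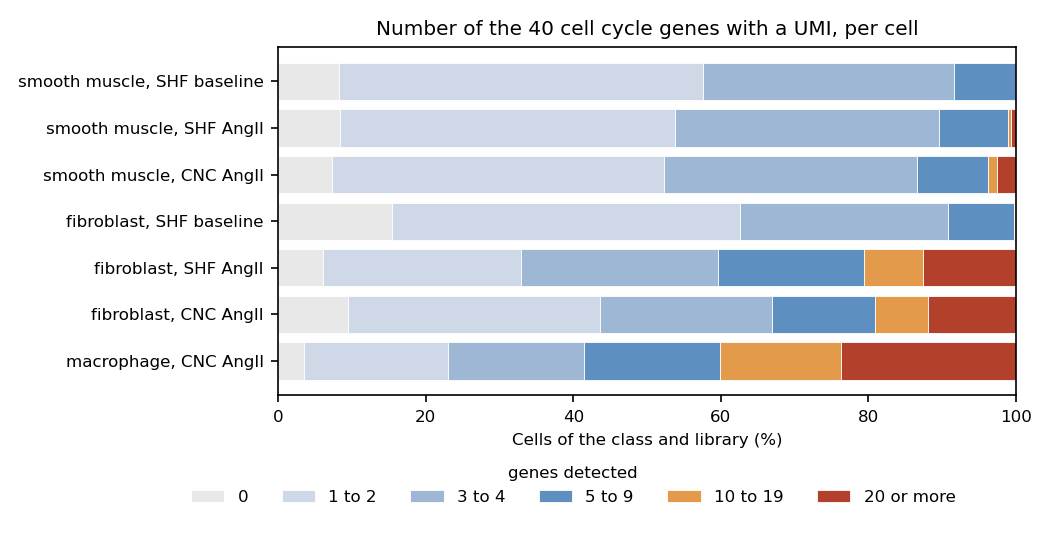
Horizontal bars give the percentage of cells of each class and library by the number of the 40 genes with a UMI. The 10 to 19 and 20 or more segments are absent in SHF baseline smooth muscle, thin in SHF AngII smooth muscle (1.12% together) and wide in AngII fibroblasts (20.6% and 19.1%) and macrophages (40.1%).

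In fibroblasts of the SHF lineage 39 of the 40 genes were higher after infusion, all but Slbp. Summed over the 40 genes the log2 ratio of SHF AngII to SHF baseline was 2.23 (95% interval 2.20 to 2.26), with 1.29 for S genes and 3.09 for G2/M genes. At least 2-fold higher were 34 members (10 S, 24 G2/M), against 5.14% of all genes with 10 or more UMIs over both libraries, and none was 2-fold lower, against 9.84%. The median over members was 2.64 and over all genes −0.22. Markers of the class moved with infusion too: the 7 fibroblast markers summed to 39519 CPM at baseline and 20004 CPM after infusion and the 7 smooth muscle markers to 1303 and 4067 CPM, and their part in the result was not tested. Ratios are log2 of CPM plus 1 on both sides, while their intervals come from the raw UMIs without that addition, so for a scarce gene the ratio can lie outside its interval. UMIs are counted at transcript ends, so CPM has no length term. The baseline levels of most G2/M genes lay in few cells. The 11 of 3939 baseline fibroblasts with 10 or more other members held 95.04% of the Ube2c UMIs of the class, 98.2% of those of Cenpf, 90.8% of those of Mki67 and 81.0% of those of Cdk1. In the rest of the class Ube2c stood at 0.318 CPM and Cdk1 at 0.636 CPM, so the baseline values below are means over a class of unlike cells. The 11 baseline fibroblasts with 10 or more members held 2857 of the 5041 G2/M UMIs of the class. Intervals of CPM and of ratios take each UMI as a separate draw. They leave out the spread between cells and are too narrow where few cells hold most UMIs.

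The drivers of mitotic entry moved together. Cdk1, the mitotic kinase, stood at 3.32 CPM (95% interval 2.77 to 3.96) in SHF baseline fibroblasts and at 82.2 CPM (95% interval 79.6 to 84.9) in SHF AngII fibroblasts, a log2 ratio of 4.27. Its cyclin partners moved the same way: Ccnb1 went from 2.95 to 30.4 CPM, Ccnb2 from 2.35 to 43.5 CPM and Ccna2 from 2.30 to 27.9 CPM. Of the mitotic kinases, Aurka, which acts at spindle poles, went from 0.976 to 15.3 CPM, and Aurkb, the kinase of the chromosomal passenger complex, from 0.739 to 20.3 CPM. Plk1, which acts from mitotic entry to exit, went from 1.08 to 22.5 CPM, and Bub1, a spindle checkpoint kinase, from 0.290 to 7.04 CPM. For the kinases Aurka, Aurkb and Bub1 the baseline level was below 1 CPM.

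Genes of mitotic exit followed. Ube2c, the ubiquitin-conjugating enzyme of the anaphase-promoting complex, stood at 6.38 CPM (95% interval 5.61 to 7.24) at baseline and 151 CPM (95% interval 147 to 154) after infusion, a log2 ratio of 4.36. Cdc20, the activator of the same complex, went from 6.38 to 56.7 CPM. Birc5 (survivin), also of the passenger complex, went from 4.49 to 92.0 CPM. The centromere and kinetochore genes followed, with Cenpa, the centromeric histone H3 variant, from 11.1 to 85.3 CPM, Cenpe, a kinetochore motor, from 4.19 to 24.8 CPM and Cenpf from 7.15 to 45.5 CPM.

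Chromosome structure genes were Top2a, the topoisomerase that untangles sister chromatids (4.14 to 59.5 CPM), Mki67, which coats mitotic chromosomes (3.72 to 48.5 CPM), and Hmgb2, a chromatin protein (48.0 to 136 CPM). Hmgb2 had the highest baseline level of the G2/M genes and the lowest ratio of them, 1.49. The spindle genes Tpx2, Nusap1, Kif11 and Tacc3 had log2 ratios of 2.85, 2.60, 2.20 and 2.67. The cytokinesis genes Kif23, Kif20b and Prc1 had 2.52, 2.05 and 3.07. All 24 G2/M genes were thus past 2-fold, whereas the S genes split.

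Among S genes in fibroblasts, the nucleotide enzymes Tyms (thymidylate synthase) and Rrm2 (the cycle-regulated subunit of ribonucleotide reductase) stood at 14.9 CPM (95% interval 13.7 to 16.2) and 2.69 CPM (95% interval 2.19 to 3.27) at baseline. They stood at 97.9 CPM and 22.1 CPM (95% interval 20.7 to 23.5) after infusion. Rrm1, the other reductase subunit, had a smaller log2 ratio (1.12) than Rrm2 (2.65), as did Dut, the dUTPase (1.09). Of the helicase genes, Mcm5 had the highest ratio (3.00, from 1.21 to 16.7 CPM), followed by Mcm2 (1.54), Mcm7 (1.46), Mcm3 (1.24), Mcm6 (0.91) and Mcm4 (0.44). Gins2, part of the active helicase, had 2.83, and Uhrf1, which carries DNA methylation through replication, had 2.82. Pcna fell just short of 2-fold at 0.99, and Ung, a uracil-DNA glycosylase, stood at 0.96. Cdc6, the helicase loader, stood at 0.44. Slbp, which binds histone mRNA, was level at −0.10, and on a TMM scale, which moved the median of all genes by 0.13 in smooth muscle and 0.15 in fibroblasts, its value was 0.11.

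**Figure D2:**
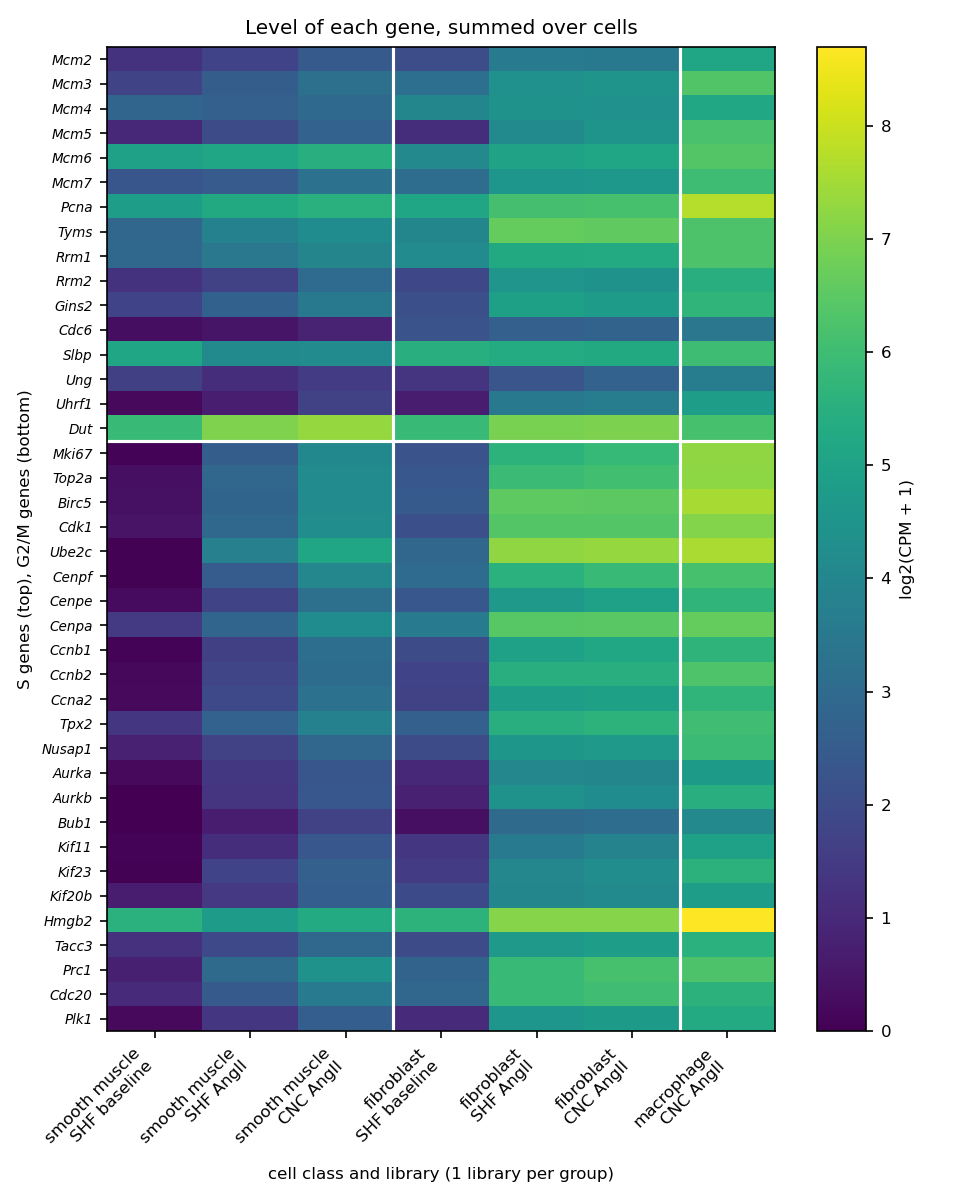
Colour gives log2(CPM + 1) of each of the 40 genes (y axis, S above the white line) in each cell class and library (x axis, 1 library each). G2/M genes other than Hmgb2 are dark in SHF baseline smooth muscle (Ube2c 0.0338 CPM), brighter in AngII fibroblasts (151 and 158 CPM) and brightest for most genes in macrophages (194 CPM). Hmgb2 and Slbp are brighter than the rows next to them in every column shown.

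In smooth muscle cells of the SHF lineage 23 of the 24 G2/M genes were also higher after infusion, all but Hmgb2, and 19 of them were past 2-fold. Hmgb2 made up 45.6 of the 55.4 CPM of the baseline G2/M sum, and each of the other 23 stood below 2 CPM there. The log2 ratio was 0.70 (interval 0.66 to 0.74) for the 40 genes, 0.56 for S and 1.07 for G2/M genes. At least 2-fold higher were 21 members (those 19 and the S genes Mcm5 and Dut) against 3.11% of all genes tested, and none was 2-fold lower, against 3.32%. The count depends on the pseudocount, since with 10 CPM in place of 1 only 2 members passed. The median over members was 1.05, or 1.10 with the members at 0 set to their bound, and over all genes −0.12.

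Aurkb and Bub1 had no UMI in SHF baseline smooth muscle, and set against a floor of 3 UMIs over that class, they were at least 14.5-fold and at least 6.10-fold higher in SHF AngII. Another 6 members had 1 to 3 UMIs there: Mki67 2, Ube2c 1, Cenpf 1, Ccnb1 2, Kif11 2 and Kif23 1. Ube2c had 885 UMIs in SHF AngII smooth muscle and stood at 12.7 CPM (95% interval 11.9 to 13.6), with an interval of the log2 ratio to baseline of 6.07 to 13.86. Mki67 stood at 4.97 CPM (95% interval 4.46 to 5.52), with an interval of 4.33 to 9.25. Top2a went from 0.271 to 6.23 CPM, Cdk1 from 0.372 to 6.51 CPM, Birc5 from 0.305 to 6.03 CPM and Prc1 from 0.711 to 7.12 CPM. These levels after infusion were less than 2-fold above those of SHF baseline fibroblasts, where Top2a stood at 4.14, Cdk1 at 3.32, Birc5 at 4.49 and Prc1 at 5.83 CPM.

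A few members went the other way in smooth muscle. Hmgb2 stood at 45.6 CPM (95% interval 43.2 to 48.1) at baseline and 27.2 CPM (95% interval 26.0 to 28.5) after infusion, a log2 ratio of −0.72. Slbp stood at 33.6 CPM (95% interval 31.6 to 35.8) and 16.9 CPM (95% interval 15.9 to 17.9), a ratio of −0.95. Ung stood at 2.10 and 1.22 CPM (−0.48) and Mcm4 at 6.06 and 5.28 CPM (−0.17). Dut, in contrast, stood at 57.3 CPM (95% interval 54.6 to 60.1) and 129 CPM (95% interval 126 to 131), a ratio of 1.15, or 1.08 in the cells with fewer than 10 members.

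Between the 2 infused libraries, smooth muscle cells of the CNC fraction carried more of the set than those of the SHF fraction. The log2 ratio of CNC AngII to SHF AngII was 0.74 (interval 0.72 to 0.76) for the 40 genes, 0.38 for S and 1.31 for G2/M genes. All 40 members were higher in CNC AngII, and 21 were at least 2-fold higher (Rrm2 and 20 G2/M genes), against 1.53% of all genes tested. Under the strict gate described next, 15 were. With 10 CPM as the pseudocount none passed 2-fold. This comparison and that with baseline share the SHF AngII library.

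Mitotic genes in CNC smooth muscle stood between SHF AngII smooth muscle and the fibroblasts of either library. Ube2c stood at 33.5 CPM (95% interval 32.3 to 34.7), Cdk1 at 18.0 CPM (95% interval 17.2 to 18.9) and Top2a at 17.4 CPM (95% interval 16.6 to 18.3), with log2 ratios to SHF AngII of 1.33, 1.34 and 1.35. Mki67 (4.97 against 15.7 CPM), Cenpf (4.79 against 15.1 CPM) and Ccnb1 (2.16 against 7.79 CPM) had ratios of 1.49, 1.48 and 1.48. Hmgb2 had the lowest of the G2/M ratios (0.51), and among S genes Rrm2 had 1.37, Uhrf1 0.95, Pcna 0.23 and Slbp 0.05.

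Macrophage transcripts moved with this difference. Of the 243 CNC AngII smooth muscle cells with 10 or more members, 70 (28.8%) carried 3 or more UMIs of C1qa, C1qb and Lyz2, against 3.17% of the other smooth muscle cells of the library and 1 of 52 (1.92%) such cells in SHF AngII. Before doublets were left out, 58 of 301 CNC AngII smooth muscle cells with 10 or more members (19.3%) were marked as doublets, against 2.77% of the class and 8 of 60 in SHF AngII. A strict gate, which left out cells with 3 or more of those macrophage UMIs or any UMI of the endothelial genes Pecam1 and Cdh5, gave 169 of 5976 cells (2.83%) in CNC AngII and 48 of 4465 (1.08%) in SHF AngII. Under it the log2 ratio over the 40 genes was 0.61.

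In fibroblasts the 2 infused fractions carried the set at close levels. The log2 ratio of CNC AngII to SHF AngII was 0.07 (interval 0.05 to 0.10), with 0.02 for S and 0.10 for G2/M genes. None of the 40 was 2-fold higher or lower, against 1.06% and 0.301% of all genes tested. The highest ratios were those of Ung (0.42), Mcm5 (0.34), Kif11 (0.31), Cenpf (0.31) and Prc1 (0.31), and the lowest that of Aurkb (−0.17). Top2a stood at 59.5 and 66.3 CPM and Mki67 at 48.5 and 55.1 CPM. The direction of the sum changed with the setting: it was −0.028 as a mean of per-cell CPM. Of the 161 CNC AngII fibroblasts with 10 or more members, 21 (13.0%) carried 3 or more macrophage UMIs, against 3.23% of the rest. Under the strict gate, which leaves those cells out, S genes summed to 568 and 543 CPM and G2/M genes to 1083 and 1134 CPM (SHF AngII, CNC AngII), and the log2 ratio over the 40 genes was 0.022.

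Within each library the summed CPM of the set was higher in fibroblasts than in smooth muscle cells. At least 2-fold higher in fibroblasts were 23 members at SHF baseline and 37 in either AngII library, against 14.7%, 13.5% and 13.1% of all genes tested (SHF baseline, SHF AngII, CNC AngII). At SHF baseline the sums were 362 and 239 CPM, yet fewer fibroblasts (37.4%) than smooth muscle cells (42.4%) had 3 or more members. In thinned cells the order of that share was reversed, at 13.2% and 8.22%. The baseline difference in G2/M genes lay largely in the 11 fibroblasts with 10 or more members. Without them G2/M genes summed to 57.9 CPM in fibroblasts, against 55.4 CPM in smooth muscle cells, and all members to 283 against 239 CPM. In SHF AngII, Ube2c had a log2 ratio of 3.47, Birc5 3.72 and Cenpa 3.59. Dut (−0.07), Mcm6 (−0.11) and Pcna (0.86) were the 3 members short of 2-fold there.

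Macrophages of CNC AngII had the highest levels. S genes summed to 1005 CPM and G2/M genes to 2146 CPM, a log2 ratio of 2.28 over smooth muscle cells and 0.82 over fibroblasts of the same library. At least 2-fold higher than in smooth muscle cells were 38 members, against 20.2% of all genes tested, and Dut was 2-fold lower, against 18.1%. Against fibroblasts 15 were, with 16.1% of all genes. Hmgb2 stood at 413 CPM (95% interval 404 to 422), Pcna at 213 CPM (95% interval 207 to 219), Ube2c at 194 CPM and Birc5 at 187 CPM (95% interval 181 to 192).

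Against fibroblasts 5 of the 6 helicase genes were at least 2-fold higher in macrophages, with Mcm3 at a log2 ratio of 1.85, Mcm5 at 1.70, Mcm2 at 1.57, Mcm7 at 1.36 and Mcm6 at 1.22, while Mcm4 stood at 0.81. Others past 2-fold included Hmgb2 (1.58), Pcna (1.57) and Mki67 (1.44). Not all members followed. Dut was lower in macrophages (71.0 CPM) than in CNC AngII fibroblasts (126 CPM) and smooth muscle cells (159.99 CPM). Cdc20 (47.1 against 64.8 CPM) and Tyms (75.7 against 94.8 CPM) were lower than in fibroblasts, and Prc1 (0.10) and Cenpa (0.19) were close. In the SHF libraries, too few macrophages were present to compare (8 and 13 cells).

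**Figure D3:**
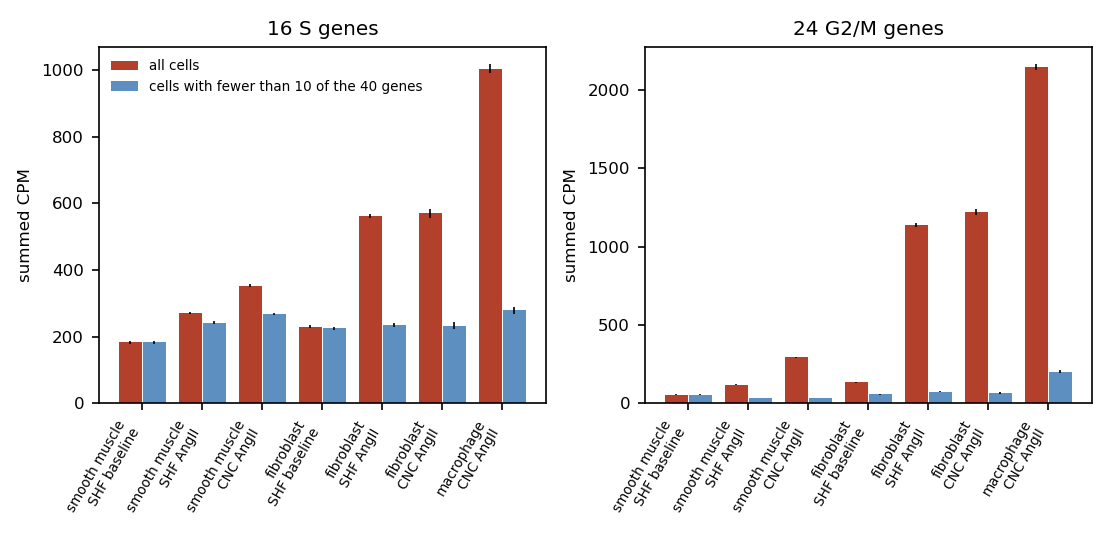
Bars give summed CPM of the 16 S genes (left) and 24 G2/M genes (right) for each class and library, over all cells (red) and over cells with fewer than 10 of the 40 genes (blue), with 95% counting intervals. Over all cells the G2/M sum runs from 55.4 CPM in SHF baseline smooth muscle to 2146 CPM in macrophages. The blue G2/M bars of AngII smooth muscle and fibroblasts lie between 31.4 and 73.0 CPM, and that of macrophages at 202 CPM.

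The balance of S against G2/M genes depended on which cells were taken. Over all cells, S genes summed to 183, 271 and 354 CPM in smooth muscle cells of SHF baseline, SHF AngII and CNC AngII, and G2/M genes to 55.4, 118 and 294 CPM. In fibroblasts they summed to 229, 563 and 571 CPM (S) and 133, 1138 and 1219.7 CPM (G2/M). In cells with 3 or more members, S genes made up 76.7%, 65.1% and 49.0% of member UMIs in smooth muscle, 58.3%, 32.1% and 30.5% in fibroblasts and 31.7% in macrophages.

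The same values were taken in cells with 10 or more members. These cells were chosen by the same 40 genes, so values that lie close together across classes follow in part from that choice. S genes made up 28.8% of member UMIs in SHF AngII smooth muscle, 28.4% in CNC AngII smooth muscle, 26.5% and 25.5% in SHF AngII and CNC AngII fibroblasts and 29.6% in macrophages. Summed levels were 1453 and 1452 CPM of S genes in SHF AngII and CNC AngII smooth muscle against 1421 and 1466 CPM in fibroblasts and 1796 CPM in macrophages. Per list length, 26 of the 52 SHF AngII smooth muscle cells with 10 or more members had more S genes and 26 more G2/M genes. In CNC AngII smooth muscle the numbers were 123 and 117, in SHF AngII fibroblasts 268 and 261, in CNC AngII fibroblasts 79 and 81 and in macrophages 355 and 347. The 11 SHF baseline fibroblasts stood apart, with 2 cells leading in S and 9 in G2/M genes, an S share of 6.76% and 15732 CPM of G2/M genes.

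Within these cells the median correlation of detection was higher within the 2 groups of genes than between them, while single pairs overlapped. Over the 543 SHF AngII fibroblasts with 10 or more members, the median correlation of detection was 0.21 between pairs of S genes, 0.44 between pairs of G2/M genes and 0.00 between an S and a G2/M gene. It was 0.22, 0.43 and −0.04 in the 708 macrophages and 0.15, 0.51 and 0.03 in the 243 CNC AngII smooth muscle cells. Single pairs of an S and a G2/M gene reached 0.42 in SHF AngII fibroblasts, 0.40 in macrophages and 0.54 in CNC AngII smooth muscle. The lowest pair of S genes stood at −0.21 in CNC AngII smooth muscle. These are descriptions over cells of 1 library, which share their depth and the rule that chose them. Part of the values can follow from that rule.

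**Figure D4:**
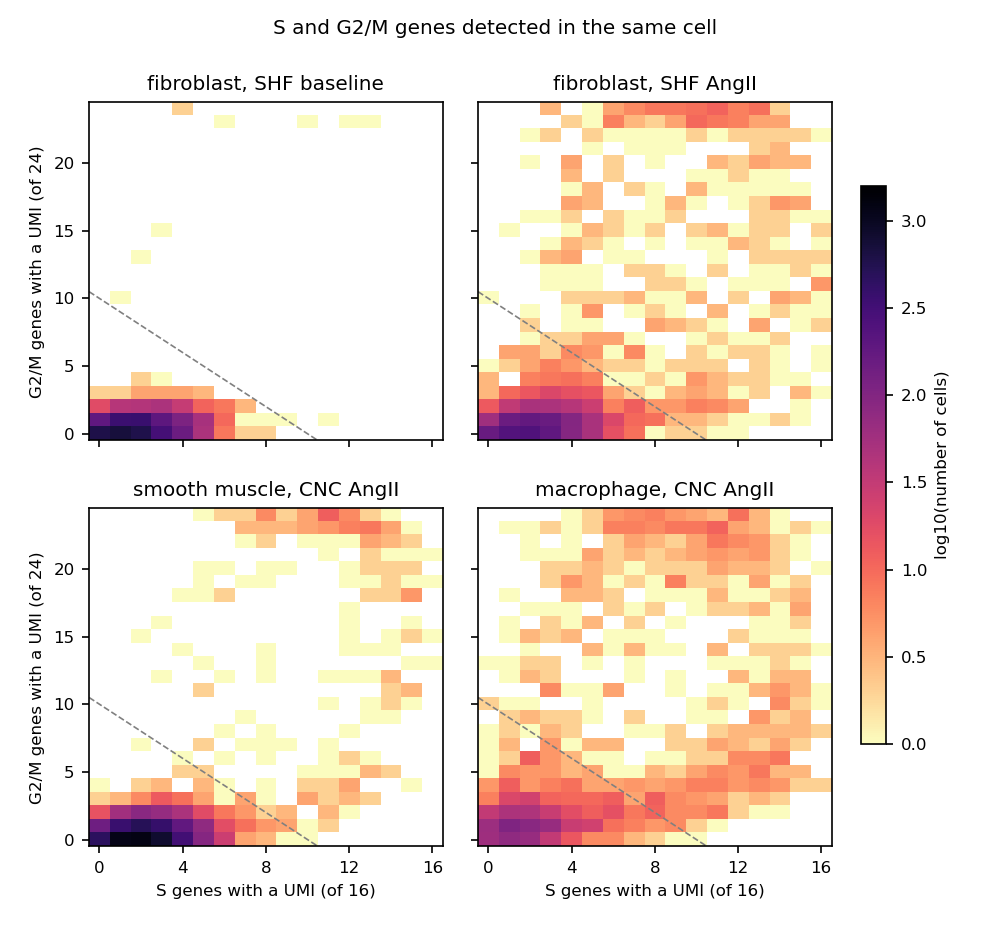
Each panel counts cells by the number of S genes (x axis, of 16) and G2/M genes (y axis, of 24) with a UMI, with colour giving log10 of the number of cells and a dashed line at 10 genes in all. SHF baseline fibroblasts have 11 cells past the line, and the other 3 panels have 543 (fibroblast, SHF AngII), 243 (smooth muscle, CNC AngII) and 708 (macrophage), spread from few to nearly all G2/M genes.

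The members differed in where their transcripts lay. For each gene, the share of its UMIs was taken in cells with 10 or more of the other members. Those cells held 2.36% of all UMIs of SHF AngII smooth muscle, 7.23% of CNC AngII smooth muscle, 27.6% of SHF AngII fibroblasts and 47.9% of macrophages. Most mitotic genes were concentrated in them: Mki67 with 95.4% and 96.8% of its UMIs in SHF AngII and CNC AngII smooth muscle, Ube2c with 93.3% and 97.0%, Cenpf with 96.7% and 98.6%. In SHF AngII fibroblasts the figures were 97.9% for Mki67, 99.1% for Ube2c and 98.4% for Cenpf.

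Most transcripts of Dut, Slbp and Mcm6 lay elsewhere in smooth muscle. Dut had 6.72% of its UMIs in those cells in SHF AngII smooth muscle, Slbp 6.64%, Mcm6 6.88% and Pcna 11.5%. In CNC AngII smooth muscle the shares were higher, 13.8% (Dut), 24.1% (Slbp), 19.6% (Mcm6) and 32.8% (Pcna). In macrophages the same genes had 88.5% (Dut), 76.6% (Slbp), 78.6% (Mcm6) and 78.4% (Pcna). Rrm2 and Uhrf1 were the S genes nearest to the mitotic ones, with 84.9% and 71.7% in SHF AngII smooth muscle. Hmgb2 was the G2/M gene farthest from the others, with 26.1% in SHF AngII smooth muscle, 63.3% in CNC AngII smooth muscle, 83.0% in SHF AngII fibroblasts and 90.5% in macrophages. Dut stood at 123 CPM in the SHF AngII smooth muscle cells with fewer other members and 396 CPM in those with 10 or more, whereas Mki67 stood at 0.236 and 203 CPM.

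**Figure D5:**
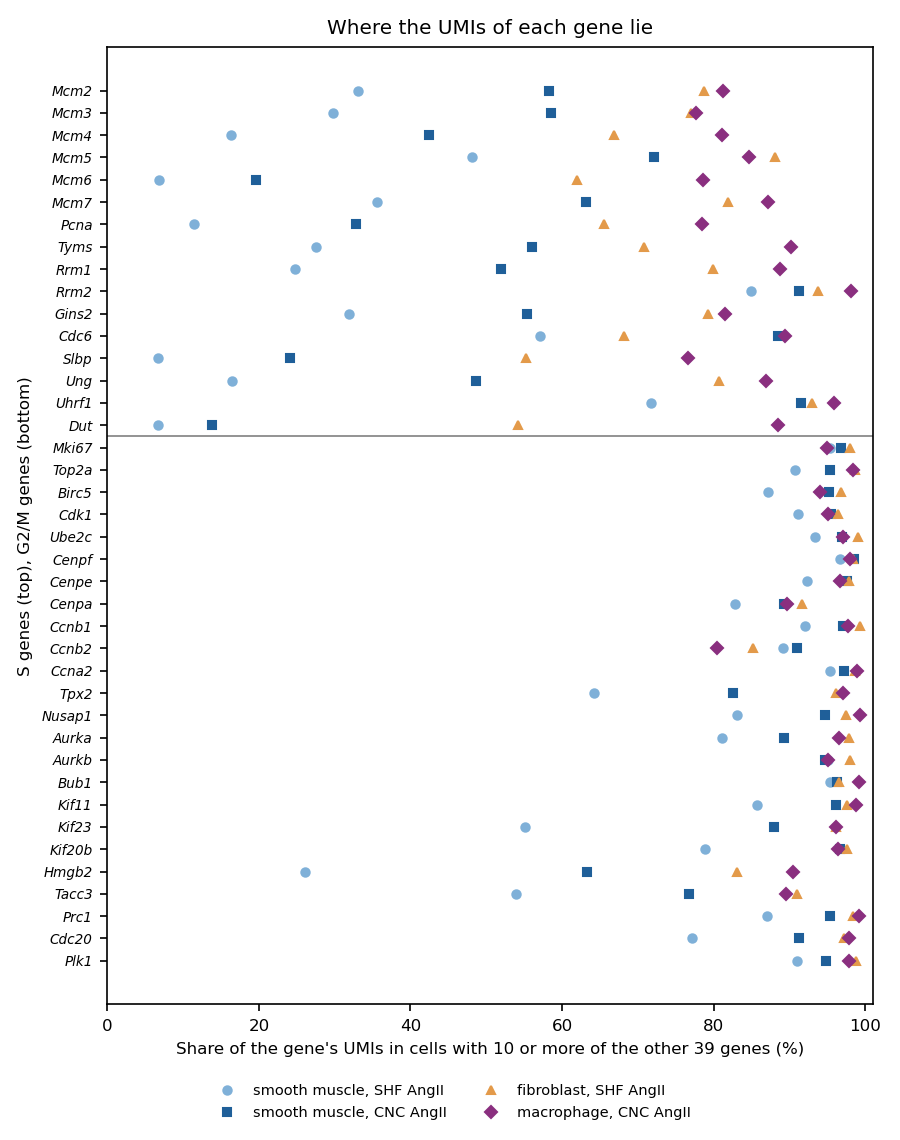
Points give, for each of the 40 genes (y axis, S above the line), the percentage of its UMIs in cells with 10 or more of the other 39 genes, for 4 combinations of class and library. Most G2/M genes crowd near the right edge, with Hmgb2 (26.1%), Tacc3 (53.9%), Kif23 (55.2%) and Tpx2 (64.2%) farther left in SHF AngII smooth muscle, and S genes spread from 6.64% for Slbp to 84.9% for Rrm2 in that class.

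Outside the cells with 10 or more members, the differences with infusion were smaller. In SHF fibroblasts with fewer than 10 members the log2 ratio of SHF AngII to baseline was 0.13 over the 40 genes, 0.07 over S and 0.33 over G2/M genes, against 2.23, 1.29 and 3.09 in all fibroblasts. At least 2-fold higher there were Tyms, Gins2, Cdk1, Ube2c and Ccnb2, with 3.69% of all genes tested. Removing cells with 10 or more members removes high values of every member, so a smaller ratio follows in part from that choice. In SHF smooth muscle with fewer than 10 members the ratios were 0.21, 0.40 and −0.71. Dut and Kif23 (1 UMI at baseline, interval of the log2 ratio 2.49 to 10.33) were 2-fold higher (2.7% of all genes) and Slbp and Hmgb2 2-fold lower (3.38%), with Slbp at −1.02 and Hmgb2 at −1.11. The G2/M sum there went from 55.4 to 33.5 CPM, of which Hmgb2 made up 45.6 and 20.5 CPM.

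The other genes of the pathway were taken from 5 lists. In SHF fibroblasts, 17 of 20 replication genes and 29 of 30 mitosis genes were at least 2-fold higher after infusion, beside the 5.14% of all genes. Pclaf, a Pcna-binding factor, stood at 0.818 CPM at baseline and 66.9 CPM after infusion, and Tk1, thymidine kinase, at 0.712 and 34.7 CPM. In SHF smooth muscle 2 of 20 replication genes and 14 of 30 mitosis genes were 2-fold higher, against 3.11% of all genes. In smooth muscle of CNC AngII against SHF AngII the counts were 2 and 15, against 1.53%, and in fibroblasts 0 and 0, against 1.06%.

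The lists of regulators of entry into the cycle are read against the 5.14% of all genes that were 2-fold higher and the 9.84% that were 2-fold lower in SHF AngII fibroblasts. Of 15 genes of the E2F, RB and DREAM list, E2f8, Foxm1 and Mybl2 were 2-fold higher in SHF AngII fibroblasts and Rbl2, the p130 pocket protein of DREAM, was 2-fold lower (24.1 to 10.0 CPM). Foxm1, a transcription factor of mitotic genes, stood at 0.633 and 7.44 CPM. Of 8 G1 cyclins and kinases, 3 were 2-fold higher in fibroblasts, among them Ccne1 (cyclin E1, 0.712 to 7.77 CPM), and Ccnd2 (cyclin D2) was 2-fold lower (249.98 to 122 CPM). None of the 7 kinase inhibitors was 2-fold higher or lower in SHF fibroblasts, and Cdkn1a (p21) stood at 309 and 170.2 CPM in SHF fibroblasts. None of these 3 lists had a 2-fold difference in SHF smooth muscle, against 3.11% (higher) and 3.32% (lower) of all genes.

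Cells with 10 or more members were then set against the rest of their class. The members chose these cells, so their own ratios are not given. Other cycle genes went with them: in SHF AngII fibroblasts all 20 replication genes and all 30 mitosis genes were at least 2-fold higher, against 4.44% of all genes, as were Ccne1, Ccne2, E2f1, E2f7, E2f8, Foxm1 and Mybl2. Of the genes outside the set, the replication-dependent histone Hist1h2ap stood at 214 CPM in those fibroblasts and 1.63 CPM in the rest, and at 479.9 and 5.36 CPM in macrophages. Of the 7 kinase inhibitors, Cdkn2c and Cdkn2d, which act on the cyclin D kinases, were also 2-fold higher, while Cdkn1c (p57) was lower (68.1 against 162 CPM). In SHF AngII fibroblasts 1.17% of all genes were 2-fold lower.

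Some contractile genes of smooth muscle were 2-fold lower in these cells and most were not. In smooth muscle by the strict gate, none of 15 contractile genes was 2-fold higher, against 7.54% (CNC AngII) and 8.65% (SHF AngII) of all genes. Of them 6 (CNC AngII) and 3 (SHF AngII) were 2-fold lower, against 2.31% and 4.21% of all genes, with medians of −0.90 and −0.77. Acta2, smooth muscle actin, stood at 17719.5 CPM in CNC AngII cells with 10 or more members and 35329 CPM in the rest, and at 21769 and 36308 CPM in SHF AngII. Des (desmin) stood at 30.0 against 95.7 CPM in CNC AngII and 237 against 677 CPM in SHF AngII. Timp1, Cthrc1 and Spp1, named from the list of matrix genes, were 2-fold higher in both libraries, against the same 7.54% and 8.65% of all genes. No count or median of the matrix list is given for these cells, so the named genes do not describe that list. Since CPM is a share, a gain of any abundant transcripts lowers the others, and the part of depth was not tested: before the strict gate these cells had medians of 29451 (SHF AngII) and 27681 (CNC AngII) UMIs, against 13336 and 13450.0 in their classes.

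Among fibroblasts, none of 8 adventitial genes was 2-fold higher in the cells with 10 or more members, against 4.44% (SHF AngII) and 5.94% (CNC AngII) of all genes, and 1 (SHF AngII) and 4 (CNC AngII) were 2-fold lower, against 1.17% and 4.08% of all genes, with medians of −0.82 and −1.02. Gsn (gelsolin) stood at 861 against 1797 CPM in SHF AngII. Pi16, a marker of adventitial progenitor-like fibroblasts, stood at 844 against 1536 CPM, and Dcn (decorin) at 3784 against 6508 CPM. The 16 matrix genes did not move past 2-fold in SHF AngII fibroblasts (median −0.06). Of genes with a mean of at least 50 CPM, Clec3b (93.4 against 384 CPM), Tnxb, a matrix tenascin (48.3 against 152 CPM), and Slfn5 (34.7 against 105 CPM) had the lowest ratios there.

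In macrophages with 10 or more members, all 20 replication and all 30 mitosis genes were at least 2-fold higher than in the rest, against 5.73% of all genes. Of genes with a mean of at least 50 CPM, Slfn5 had the lowest ratio (37.6 against 127 CPM). Ccl8, a chemokine, stood at 1222 against 2847 CPM, the lectin Clec10a at 138 against 296 CPM and the complement receptor Vsig4 at 201 against 370.2 CPM. In all, 0.553% of genes were at least 2-fold lower in these cells.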

How the data were processed

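Single-cell RNA was measured in 3 libraries (SHF baseline, SHF AngII, CNC AngII). The deposited tables hold raw UMI counts per gene and barcode, whole numbers that were not normalised, as their values show. The submitters' processing notes list fastp, STAR 2.5, HTSeq 0.6.1 and mm10, without role or order. The cell caller and annotation are not given in the sources used here. Baseline gene names were matched directly or, for 515 genes, by synonym.

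The cell filter asked for 500 genes or more and 10% mitochondrial UMIs or less. Scrublet (scanpy 1.11.5, expected rate 8e-06 times the number of cells) marked doublets to leave out, on barcodes with 200 genes or more and 20% mitochondrial UMIs or less. CPM is a gene's UMIs over a class and library relative to the summed total of that class. Ratios are log2 with 1 CPM added. A gene counted as tested with 10 UMIs over both sides and as different at 2-fold. Intervals (95%) are exact Poisson, Clopper-Pearson or conditional binomial, from scipy 1.17.1, and cover counting error only. Those of CPM and of ratios leave out the spread between cells. The ratio code was tested on simulated data. TMM factors came from edgeR 4.0.16.

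All 40 members could be named, with 5 pathway lists, 3 lists of class genes, and the 10 highest and lowest other genes of cells with many members. For these, 10 or more members replaced 3 or more after the data had been seen, and the genes printed are a choice of them. Members and lists were chosen with earlier results of these data known.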

Additional observations from a re-analysis of the deposited data

Results flagged for a closer look

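Several members had opposite directions in smooth muscle cells and fibroblasts of the SHF lineage after infusion, with counting intervals that leave 0 on opposite sides. The difference itself was not tested, since each group is 1 library. Hmgb2 had a log2 ratio of −0.72 (interval −0.84 to −0.64) in smooth muscle cells and 1.49 (1.43 to 1.58) in fibroblasts. Ung had −0.48 (−1.27 to −0.28) and 0.96 (0.92 to 1.81). In cells with fewer than 10 members, Mcm3 had 0.38 in smooth muscle cells and −0.30 in fibroblasts, and Cenpa had −0.42 and 0.71.

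Cells outside every gate also carried the set, above the baseline library. Among them 234 of 1999 cells of SHF AngII (11.7%, 95% interval 10.3 to 13.2) and 148 of 1211 of CNC AngII (12.2%, 10.4 to 14.2) had 10 or more members, against 6 of 2169 of SHF baseline (0.277%). What these cells are was not tested.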

How the results depend on the processing

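No paired analysis was possible because each group has 1 library, and no replicate could be left out. Of 176 alternative values for the shares, sums and counts, 98 stayed within counting error or 1.5 times, 76 moved and 2 changed sign. Of 580 for single genes and the S and G2/M sums, 229 stayed, 346 moved and 5 changed sign. The criterion of 10 or more members, its alternatives and the values for cells with fewer members were added after the data had been seen.

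For the share of cells with 3 or more members, in the order SHF baseline, SHF AngII and CNC AngII, smooth muscle gave 37.5%, 56.8% and 59.8% with a stricter cell filter (1000 genes, 5% mitochondrial UMIs), 8.22%, 9.13% and 11.8% thinned to 5000 UMIs, 69.9%, 72.1% and 72.8% for 2 or more members, 8.41%, 10.4% and 13.4% for 5 or more, 0.0443%, 1.36% and 3.76% for 3 G2/M genes other than Hmgb2, and 0%, 1.12% and 3.81% for 10 or more. Fibroblasts gave 13.2%, 32.6% and 30.9% thinned, 61.9%, 82.8% and 73.0% for 2 or more, 9.22%, 40.4% and 33.0% for 5 or more, 0.305%, 21.8% and 19.5% for the G2/M genes, 0.279%, 20.6% and 19.1% for 10 or more, and at baseline 40.1% with the stricter filter and 35.9% with the strict gate. Macrophages gave 59.2%, 88.5%, 58.6%, 41.7% and 40.1% (thinned, 2 or more, 5 or more, G2/M genes, 10 or more).

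For the share with 10 or more members, SHF AngII smooth muscle gave 2.95% with the stricter filter and 0.632% thinned. CNC AngII smooth muscle gave 4.58% with doublets kept, 7.20% with the stricter filter, 4.53% with no filter, 2.83% with the strict gate and 2.48% thinned. Thinned fibroblasts gave 13.9% and 13.5% (SHF AngII, CNC AngII) and macrophages 30.5%. The S share of member UMIs in thinned cells with 3 or more members was 59.2% and 43.0% in SHF AngII and CNC AngII smooth muscle, 56.5% and 30.2% in SHF baseline and SHF AngII fibroblasts and 32.1% in macrophages, and 48.2% in CNC AngII smooth muscle with doublets kept.

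The log2 ratio over the 40 genes in SHF AngII against baseline smooth muscle was 0.90 with the stricter filter, 0.66 with totals that leave out ribosomal protein and mitochondrial genes, 0.39 as a mean of per-cell CPM, 0.88 with TMM and 0.21 in cells with fewer than 10 members. In fibroblasts it was 2.16, 2.28, 2.10, 2.44 and 0.13 under the same settings, 2.15 with the strict gate and 2.20 with a pseudocount of 10 CPM. In CNC AngII against SHF AngII smooth muscle it was 0.77 with doublets kept, 0.68 with the stricter filter, 0.61 with the strict gate, 0.56 as a mean of per-cell CPM and 0.12 in cells with fewer than 10 members. With a pseudocount of 10 CPM, 2 and 0 members were 2-fold higher in smooth muscle (AngII against baseline, CNC AngII against SHF AngII). In fibroblasts of CNC AngII against SHF AngII the ratio was 0.022 with the strict gate and turned to −0.028 as a mean of per-cell CPM and −0.036 in cells with fewer than 10 members. Also reversed were the G2/M sums of cells with fewer than 10 members, −0.71 (smooth muscle, AngII against baseline), −0.091 (smooth muscle, CNC AngII against SHF AngII) and −0.11 (fibroblasts, the same), Slbp in fibroblasts with TMM (0.11) and Top2a in fibroblasts of CNC AngII against SHF AngII with the strict gate (−0.048). The causes were not tested, beyond the fewer members per cell that thinning and the other criteria bring by construction. Counting error is wide where UMIs are few, as in baseline smooth muscle, where 8 of the 40 members had 3 UMIs or fewer. That class held 2259 cells with a median of 12441 UMIs, and baseline fibroblasts 3939 cells with a median of 9534.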

Other observations

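Macrophages of CNC AngII were split after their values had been seen by Lyve1, a marker of resident macrophages, and Ccr2, the receptor of recruited monocytes. Both genes were read as having a UMI or none, so the split depends on depth, and the part of depth in the shares was not tested. Of 1180 cells with a Lyve1 UMI only, 435 (36.9%, 95% interval 34.1 to 39.7) had 10 or more members. Of 286 with a Ccr2 UMI only, at a median depth of 9874 against 11725.5 UMIs, 149 (52.1%, 46.1 to 58.0) had them. Of 169 cells with both, 83 (49.1%) had them, and of 129 with neither, 41 (31.8%), at median depths of 11744 and 8134 UMIs.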
